A study of Macaca mulatta with 4 samples.

Results

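In rhesus macaque (Macaca mulatta) morulae, 5681 autosomal regions were called open to DNase I in both gynogenetic libraries and in neither androgenetic library. They lay within 50 kb of chromatin called open in all 4 libraries. Lack of a call does not show that a region was closed. The regions were chosen from the authors' deposited hotspot lists. Overlapping or touching hotspots of the 4 lists were merged into 222970 regions, 222776 of them on chromosomes 1 to 20. A region was kept when it held a hotspot of GG replicate 1 and of GG replicate 2, none of either AG library, and a gap of 50 kb or less to the nearest region called in every library. That nearest region is called its shared neighbour here. The calls that chose the regions are therefore a description and carry no test.

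The nuclear DNA of gynogenetic (GG) embryos is all maternal, and that of androgenetic (AG) embryos is all paternal. The samples were 2 GG and 2 AG libraries of whole morulae, all digested with DNase I at 40 U/ml for 5 min at 37 °C, and animals, embryo numbers and ages are not given in the labels. A comparison of the groups sets maternal against paternal chromosomes, and the making of the embryos and their donors cannot be told apart from parental origin. Nothing in the labels ties replicates to separate groups of embryos, so the spread behind a p-value over libraries may be technical. A library averages over the cells of its embryos, so fewer cells with an open site and a less open site cannot be told apart.

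DNase I cuts DNA that is not packed tightly around nucleosomes, and a hotspot is a stretch with more cuts than its surroundings. In mammalian cells, sites open in nearly every sample are often promoters of widely used genes, whereas enhancers, which act on promoters from a distance, vary more between cells. Embryos with genomes of 1 parent are used to study imprinting, in which the copy of a gene from 1 parent is used and the other is silenced by marks laid down in the germ line. Positions below refer to rheMac8 and count from 1. Genes, promoters and sequence at these positions were not analysed here, because no genome or annotation of that build was used.

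The GG lists held 93171 and 84865 hotspots covering 102 and 93.2 Mb, and the AG lists held 64730 and 85318 covering 67.8 and 84.3 Mb. The lists hold no read counts, so sequencing depth is unknown. Depth and length of list cannot be told apart, and both bear on how many regions count as present or absent. The intervals given for shares cover counting error over regions only, and regions are not replicates of a kind of embryo.

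The GG-only regions near shared chromatin made up 2.55% of all merged autosomal regions and 46.5% of the 12210 GG-only regions there (95% Wilson interval 45.6 to 47.4%). GG-only regions as a whole were 5.48% of the merged regions. The mirror set, called in both AG and no GG library within 50 kb of a shared region, numbered 2612 of 4727 AG-only regions (55.3%, interval 53.8 to 56.7%). AG-only regions as a whole were 2.12% of the merged regions. The order of the shares near shared chromatin turned when an AG library was left out, so that AG-only needed a call in 1 library. It was then 58.0% for GG-only and 44.4% for AG-only regions without AG replicate 1, and 59.4% and 51.9% without AG replicate 2. A shared region then needed calls in the remaining libraries only, so the set that distances were measured to changed as well. With all libraries there were 2.17 GG-only regions near shared chromatin for each AG-only one. This ratio depended on the length of the lists. It was 1.53 when each list was shortened by score to the number of hotspots of the shortest, and 0.958 (2577 against 2690 regions) when lists were shortened to equal covered length. The larger number of GG-only regions near shared chromatin is therefore not kept at equal covered length.

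Regions called in 1 library only show how often a region lies near shared chromatin without any rule on groups. Within 50 kb of a shared region lay 36.2% of 46811 such regions of GG replicate 1 and 35.5% of 40142 of GG replicate 2, against 42.4% of 29628 of AG replicate 1 and 36.6% of 50348 of AG replicate 2. The mean was 35.9 ± 0.523% in GG and 39.5 ± 4.09% in AG libraries (SD, n = 2 each; two-sided exact permutation p = 0.33, which is the smallest that 2 libraries against 2 allow). Both GG libraries lay below both AG libraries, but GG replicate 1 and AG replicate 2 differed by less than the spread between the AG replicates. In percentage points, GG minus AG was -3.63 over the 4 libraries. It was -0.337 when AG replicate 1 was left out and -6.88 when AG replicate 2 was. Without GG replicate 1 it was -2.28 and without GG replicate 2 -1.87. With a library left out, the regions called only in the lone library of its group are that group's group-only set. Shared regions are then those called in all remaining libraries. These values are therefore no check of the difference over the 4 libraries. The shares of 46.5% for GG-only and 55.3% for AG-only regions lay above those of the regions that 1 library of the same group called. Scores of regions called in 1 library were not compared.

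Within the 50 kb, the GG-only regions were packed close to their shared neighbours. The median gap was 13294 bp, with quartiles of 4083 and 27813 bp. Counted per kb of gap, there were 500 regions at up to 500 bp and 646 between 500 and 1000 bp, then 328 between 1000 and 2000 bp, 158.6 between 5000 and 10000 bp and 54.7 between 40000 and 50000 bp. A gap of up to 1 kb was found for 573 (10.1%, interval 9.33 to 10.9%) of them. Among AG-only regions within 50 kb it was 208 (7.96%, interval 6.99 to 9.06%). Of the nearby regions called in 1 library only, the share within 1 kb was 6.80% and 7.82% in GG replicates 1 and 2 and 6.18% and 4.53% in AG replicates 1 and 2. With all hotspots, the share within 1 kb was higher in the GG-only set than in any of the other sets given here. The same shares are not given here for shortened lists. The median gap of nearby GG-only regions changed with the lists. At equal number of hotspots it was 13963 bp, and at equal covered length 14660 bp. It was 16210 bp after cutting every list to 50% by score, and 11047 to 15087 bp with 1 library left out. Nearby AG-only regions had a median gap of 14673.5 bp with all hotspots.

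**Figure D1:**
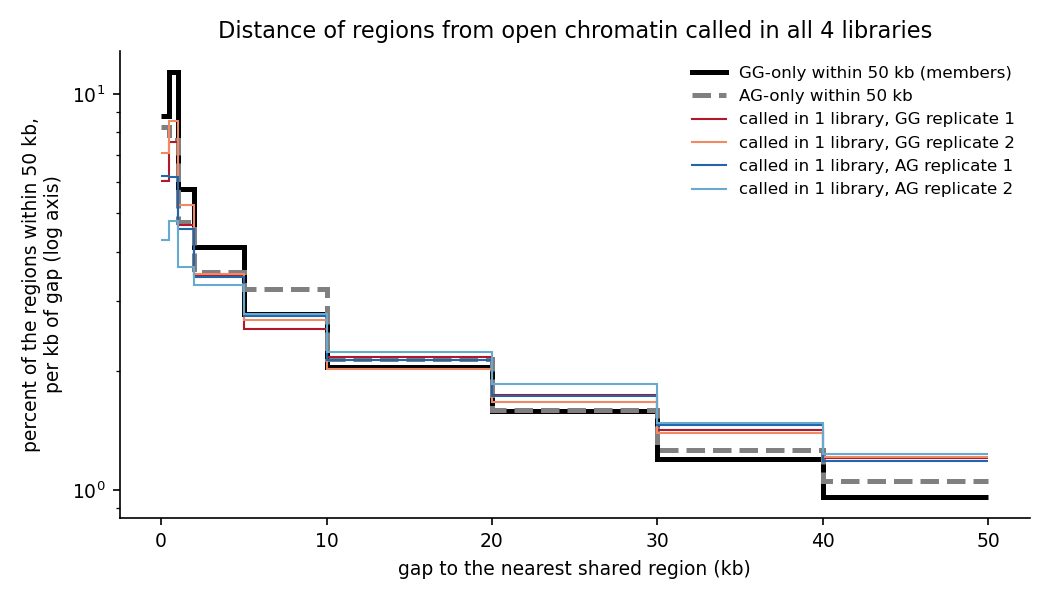
Gap to the nearest shared region (kb, horizontal axis) against the percentage of a set's regions within 50 kb, per kb of gap (vertical axis, log scale). The black line is the 5681 GG-only regions near shared chromatin (members), the dashed grey line the 2612 AG-only ones, and thin coloured lines the regions called in 1 library only. Beyond 1 kb every set falls with distance, and the black line is the highest below 5 kb and the lowest beyond 40 kb.

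In form the GG-only regions were simple. In 5434 of them (95.7%) each GG library had exactly 1 hotspot. Widths had a median of 1396 bp with quartiles of 1116 and 1941 bp, and the widest was 8335 bp. The stretch called was as long in either library, with medians of 1060 bp in GG replicate 1 and 1052 bp in GG replicate 2, and GG replicate 1 had the longer call in 50.7% of regions. The replicates overlapped by a median of 740 bp, 53.1% of the region's width, and the centres of their hotspots lay a median of 254 bp apart. In 278 regions (4.89%) the overlap was under 10% of the width, and in 3 the hotspots only touched. Those 3 count as called in both libraries although no base was.

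Set beside other classes, these regions resembled GG-only regions farther from shared chromatin, which had a median width of 1355 bp and a median replicate overlap of 49.4% of the width. AG-only regions within 50 kb had a median width of 1380.5 bp and overlapped by 46.6%. Shared regions had a median width of 2927 bp, and they are built from 4 lists where the others are built from 2. Width and gap were almost unrelated across the 5681 regions (Spearman rho = -0.0167, a description). The median width was 1448 bp for regions within 1 kb of their neighbour and 1389.5 bp for those between 20000 and 50000 bp away.

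The authors' score of a hotspot has no stated scale, so it was turned into a percentile within each list. The GG-only regions near shared chromatin were of middling score, with median percentiles of 61.1 (GG replicate 1) and 58.1 (GG replicate 2). GG-only regions farther away had 57.7 and 55.0. Shared regions had 88.8 and 88.2 in the same libraries. A top-decile score was found for 6.79% of the nearby GG-only regions in GG replicate 1 and 5.44% in GG replicate 2. Only 102 regions (1.80%) were in the top decile of both lists, and 8 were in the top 1% of both. In 1111 (19.6%) neither library put the region above the 50th percentile, and in 2329 (41.0%) both did.

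The replicates ranked these regions alike only in part, with a Spearman rho of 0.318 between the 2 percentiles over 5681 regions. For shared regions it was 0.633. Both values come from the same pair of libraries. Wider regions scored higher, with a rho of 0.346 between width and the lower of the 2 percentiles. Score and distance were almost unrelated. The median percentile in GG replicate 1 was 59.1 within 1 kb of the neighbour and 60.8 between 20000 and 50000 bp (rho of gap against the lower percentile = 0.0105).

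**Figure D2:**
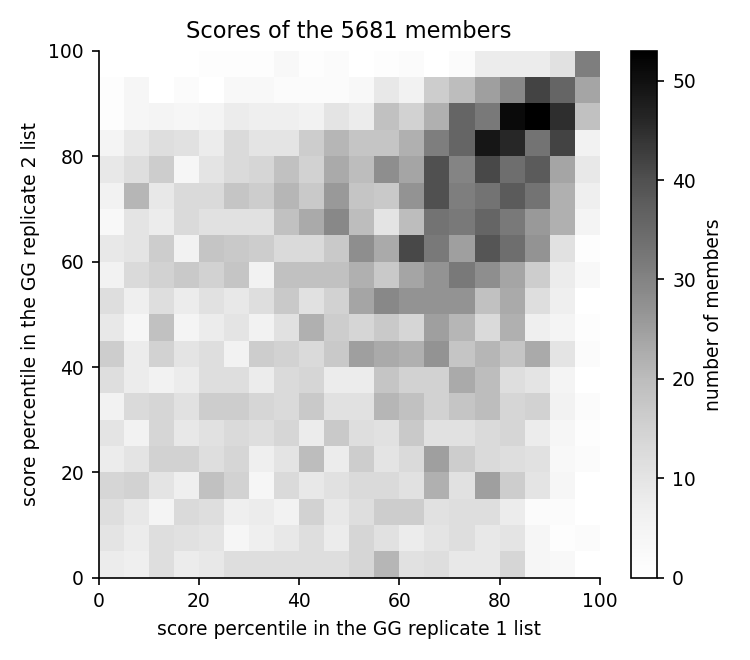
Score percentile in the GG replicate 1 list (horizontal) against that in the GG replicate 2 list (vertical) for the 5681 GG-only regions near shared chromatin, with darker squares holding more regions. The regions, called members in the plot, spread over the whole square, with 41.0% above the middle of both axes and 1.80% in the top decile of both.

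The 10 regions named here for their score are those with the highest percentile in the weaker GG list, and all 10 were called in neither AG list. First was chr17:2304466-2305828, scoring 142 in the first and 98.9 in the second GG list. Its called lengths were 1300 and 1252 bp, and the replicates shared 1189 bp of its 1363 bp. The shared neighbour lay 11983 bp away at chr17:2317812-2319391 and had lower scores in the GG lists, 50.7 and 23.0. In the AG lists that neighbour had 20.9 and 61.9, and scores of different lists have no stated common scale. A region absent from both AG lists thus outscored, in the GG lists, a neighbour that every library called.

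The second region, chr15:16560373-16561393, lay only 1418 bp from a shared neighbour with much higher scores in both GG lists. It had 47.9 and 51.7 in the GG lists, while chr15:16562812-16567542 had 165 and 143 in the GG and 73.7 and 108 in the AG lists. In AG replicate 1 that neighbour was called over 953 bp, against 4413 and 3596 bp in the GG libraries and 3003 bp in AG replicate 2. The third, chr19:41158096-41158346, was 251 bp wide with scores of 45.9 and 53.3, and GG replicate 2 called only 44 bp of it. It is the narrowest of the 10 and lay 28097 bp from its neighbour.

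Next came chr17:9106018-9106934 with scores of 39.2 and 36.2 and a gap of 19948 bp. Its neighbour, chr17:9085541-9086069, was 529 bp wide, with 202 and 159 bp called in the GG and 504 and 212 bp in the AG libraries. The fifth, chr8:7693937-7697040, was called over 3077 bp in GG replicate 1 and 1248 bp in GG replicate 2. It lay 14500 bp from a 7764 bp neighbour that all libraries called over at least 6049 bp.

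For chr4:7055351-7056228 the scores were 42.2 and 24.8, and its shared neighbour was called over 4122 and 1653 bp in the GG and 910 and 956 bp in the AG libraries. The region chr7:44131101-44133047 had 87.2 in GG replicate 1 and 22.8 in GG replicate 2, which are percentiles of 99.9 and 99.5 in those lists. It lay 49985 bp from its neighbour and is also the closest of all to the 50 kb limit. The last 3 were chr4:42928508-42929946 (19.3 and 20.4), chr1:46354818-46358927 (25.1 and 16.4) and chr6:109933351-109934364 (16.6 and 19.9). Of these, chr1:46354818-46358927 was the most fully shared between replicates, with 3467 of 4110 bp called in both.

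The 5 widest regions were chr10:19119077-19127411 (8335 bp), chr9:106048887-106056785 (7899 bp), chr14:79494380-79501721 (7342 bp), chr10:53088459-53095211 (6753 bp) and chr5:107602619-107609095 (6477 bp). Each was built from more than 1 hotspot in at least 1 GG library. The widest joined 1 hotspot of 7274 bp in GG replicate 1 with 3 hotspots totalling 5849 bp in GG replicate 2. Its shared neighbour, 7686 bp away, was called over 1222 and 4555 bp in the GG and 1062 and 1019 bp in the AG libraries. None of the 5 was among the 10 highest scoring regions, and their scores lay between 7.25 and 17.2.

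The 5 smallest gaps were 6, 8, 10, 17 and 17 bp. The closest region, chr6:75505556-75506698, began 6 bp after a shared neighbour that GG replicate 2 called over all 4016 bp, GG replicate 1 over 828 bp, AG replicate 1 over 616 bp and AG replicate 2 over 2090 bp. At chr19:28893892-28895018 a region called over 1127 and 859 bp followed a shared neighbour after 8 bp, and that neighbour was called over 2567 and 786 bp in the GG and 3300 and 2504 bp in the AG libraries. At chr6:63261073-63262319 the gap was 10 bp, and at chr3:35072082-35074117 and chr4:54171357-54174242 it was 17 bp. When intervals within 150 bp of each other were merged, the number of GG-only regions near shared chromatin was 5765, against 5681 without that merging.

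At the other end, the 3 regions just inside the limit had gaps of 49985, 49983 and 49953 bp, and the 3 just outside, chr15:38123777-38125463, chr5:55881607-55883720 and chr3:154526006-154526779, had 50016, 50040 and 50045 bp. Widths were 1947, 1215 and 1042 bp inside and 1687, 2114 and 774 bp outside. Apart from the high score of chr7:44131101-44133047, scores were 4.29 to 6.02 inside and 4.71 to 8.88 outside.

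The GG-only regions lay on either side of their neighbours, 2818 (49.6%) with the neighbour at the lower and 2863 (50.4%) at the higher coordinate. In 1527 (26.9%) the shared neighbour was the next called region of any kind, and in 3023 (53.2%) at least 2 other regions lay between. A shared region stood within 50 kb on both sides for 1764 (31.1%). In all, 4210 shared regions (32.0% of 13158) were the nearest one for at least 1 GG-only region. Of these, 3079 served 1 region, 874 served 2 and 257 served 3 or more.

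Another GG-only region of the set lay within 10 kb of 1406 regions (24.7%) and within 50 kb of 3158 (55.6%). All were chosen to lie within 50 kb of shared regions, and the same share is not given here for other sets. Whether they group more than that choice brings about was not tested. An AG-only region, at any distance from shared chromatin, lay within 10 kb of 359 (6.32%) and within 50 kb of 1522 (26.8%). Counting every GG-only region within 50 kb, 7 were found around each of 3 shared regions, the highest number. At chr17:10044046-10045350 there were 3 on the lower and 4 on the higher side, at gaps of 17482 to 43364 bp, with a summed width of 13238 bp and no AG-only region within 50 kb. That shared region itself was called over 1221 and 1128 bp in GG and 921 and 807 bp in AG.

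At chr7:114747655-114750917 there were 2 GG-only regions on the lower and 5 on the higher side, with 1 AG-only region. Here the shared region was called over less in GG (1187 and 1224 bp) than in AG (2090 and 2911 bp). Around chr9:60473767-60475737 there were 2 and 5, at gaps from 10345 bp. Of the 3 shared regions with 6, those first by chromosome and position in the lists were chr13:72118217-72121429 and chr4:43887861-43890853. All 6 around the chromosome 4 position lay on its lower side, the nearest at a gap of 1067 bp, within 45403 bp. By windows of 1 Mb, GG-only regions near shared chromatin were found in 1616 windows, with a median of 3 and a maximum of 15 at chr4:43000001-44000000, where 3 AG-only regions and 16 shared regions also lay. That window was singled out after its values were seen.

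At 3 kb and 20 kb from their centres, the surroundings of the GG-only regions were more covered by hotspots of every library than chromosomes 1 to 20 as a whole. At 3 kb from the centre, 15.8% of the regions were covered by a hotspot of GG replicate 1 and 14.0% by one of GG replicate 2, against 8.63% by AG replicate 1 and 8.36% by AG replicate 2. At 20 kb these shares were 8.62% and 7.82% in GG and 6.13% and 6.70% in AG. The libraries covered 3.82% and 3.48% (GG) and 2.54% and 3.15% (AG) of the chromosomes up to their last hotspot. At 3 kb and 20 kb all 4 libraries are above their own genome share, and all the regions were chosen to lie near shared chromatin. At 1 kb the AG libraries covered 1.58% and 1.74%, below their genome shares, and AG hotspots may not touch a region by the rule. The excess of GG over AG was larger at 3 kb than at 20 kb.

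GG-only regions farther than 50 kb from shared chromatin had less of all libraries around them. At 3 kb the GG libraries covered 8.55% and 7.26% of them and the AG libraries 2.27% and 2.62%, the AG values lying below those libraries' genome shares. Around AG-only regions near shared chromatin the order was turned: at 3 kb, the GG libraries covered 8.61% and 7.75%, and the AG libraries 9.97% and 10.9%, although the GG lists cover more of the genome. Values around every set depend on the choice of regions. A hotspot of the absent group may not touch a region, and the farther regions were chosen away from shared chromatin.

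**Figure D3:**
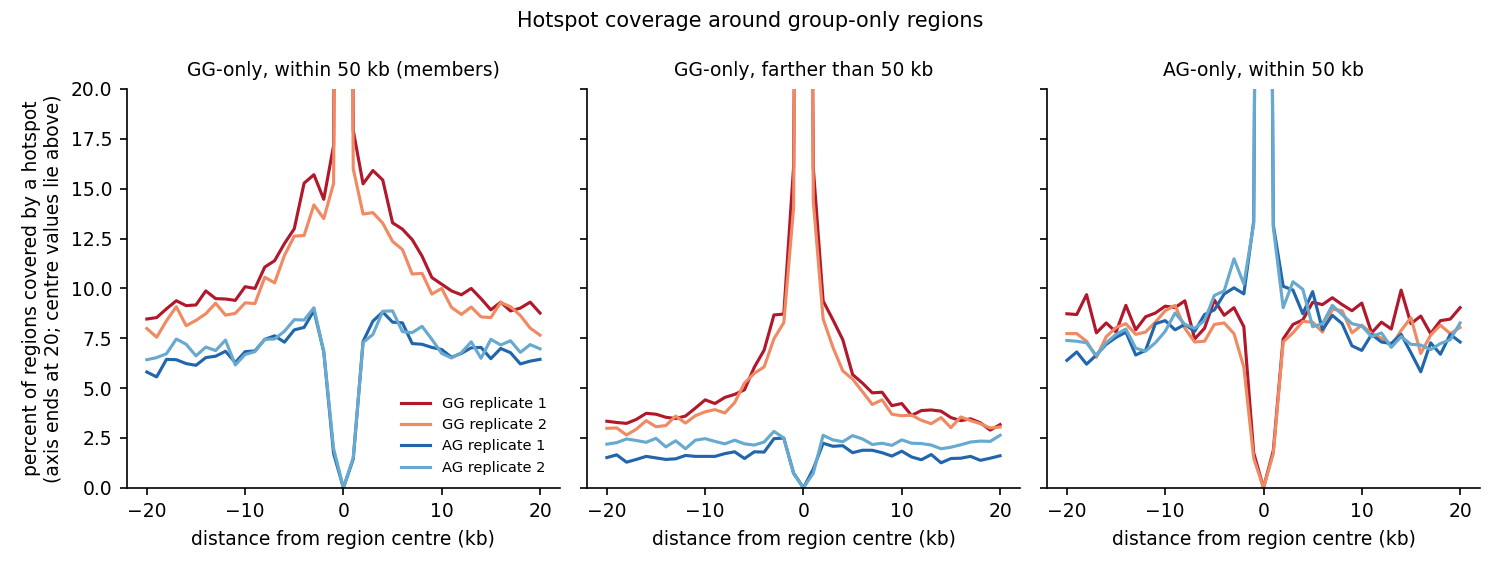
Distance from the centre of a region (kb, horizontal) against the percentage of regions covered by a hotspot there (vertical, ending at 20%), for GG-only regions near shared chromatin, GG-only regions farther away and AG-only regions near shared chromatin. Lines are the 4 libraries, GG in red and AG in blue. At the centre the absent group is at 0 by choice of the regions, and beside it the GG lines stay above the AG lines in the left panel, at 15.8% and 14.0% against 8.63% and 8.36% at 3 kb.

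Regions called in 1 library only were not themselves used in choosing the GG-only regions, but they come from the same lists. Each group-only set was chosen for calls of 1 group and none of the other. A difference around these sets is therefore no independent test, and it is given as a description. Within 10 kb of the GG-only regions near shared chromatin, 45.8% had one of GG replicate 1, 39.2% one of GG replicate 2, 26.1% one of AG replicate 1 and 35.5% one of AG replicate 2. Around AG-only regions near shared chromatin the shares were 35.5% and 30.2% for the GG and 35.8% and 45.5% for the AG libraries. Dividing the first by the second, which sets each library against itself, gave 1.29 and 1.30 in the GG and 0.730 and 0.780 in the AG libraries. Both GG libraries lay above both AG libraries, with means of 1.29 ± 0.00300 and 0.755 ± 0.0349 (SD, n = 2 each). No p-value is given, since the choice of the sets bears on the direction.

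Regions that 1 GG library alone called were thus more frequent beside GG-only than beside AG-only regions, and those that 1 AG library alone called were less frequent. The difference of the ratios, 0.540, was 1.10 with a flank of 2 kb and 0.101 with a flank of 50 kb. Leaving out a library gives no check of it, since the group-only regions of the shortened group are then themselves the regions called in 1 library. Of GG-only regions farther away, 46.3% and 40.9% had a region of 1 GG library within 10 kb, against 19.7% and 29.0% with one of 1 AG library.

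AG hotspots often lay close to the GG-only regions without touching them. An AG hotspot of either replicate lay within 500 bp of 610 GG-only regions near shared chromatin (10.7%) and within 1 kb of 1282 (22.6%). The nearest AG hotspot was a median of 2875 bp away. By replicate, AG replicate 1 had a hotspot within 1 kb of 14.0% and AG replicate 2 of 13.6%. For AG-only regions near shared chromatin, a GG hotspot lay within 1 kb of 602 (23.0%), and the median distance was 3096.5 bp. For 1928 GG-only regions (33.9%) no AG hotspot lay within 5 kb, although all have a shared region with AG calls within 50 kb.

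Shared regions were compared to see whether open chromatin beside the GG-only regions also differed between the groups. The length of a shared region that each library called was not itself used in choosing the GG-only regions, but it comes from the same hotspots. A GG hotspot that touches a shared region is merged into it and adds to its called length. Called length and the presence of a GG-only region nearby are therefore not independent. Of 13158 shared regions, 6792 (51.6%) had at least 1 GG-only region within 50 kb, and 763 (5.80%) had 3 or more. Those with one were called over medians of 2067.5 and 1985.5 bp in the GG and 1638 and 1460.5 bp in the AG libraries. Those without were called over 1952 and 1883 bp in GG and 1549 and 1443 bp in AG. The median called length was thus longer beside GG-only regions in each of the 4 libraries, and longer in GG than in AG in both sets.

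Called length was tested with limma on log2 of the covered bp plus 100 bp, with each library centred on its median over shared regions. No shared region passed an adjusted p of 0.05 (0 of 13158), and the smallest adjusted p beside a GG-only region was 0.229. An unadjusted limma p under 0.05 was found for 12.2% of all shared regions, and for 825 (12.1%) of the 6792 with a GG-only region within 50 kb. Over both directions, the share was thus no higher beside GG-only regions than in general. By direction, 339 of the 6792 (4.99%) were longer in GG and 486 (7.16%) longer in AG. Of the 6366 shared regions without a GG-only region nearby, 3.88% were longer in GG and 8.33% longer in AG. All shared regions had 4.45% and 7.72%. Without centring on the library median, 840 of the 6792 (12.4%) were longer in GG and 181 (2.66%) longer in AG, against 11.8% and 2.88% of all shared regions. These shares were not compared by a test. Which direction prevailed therefore depended on centring. The median log2 difference (GG minus AG) over all shared regions was -0.12 with centring and 0.24 without.

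Relative to this general shift, shared regions differed little by what lay near them. The median log2 difference (GG minus AG) was -0.06 for the 4675 shared regions with a GG-only but no AG-only region within 50 kb, -0.20 for the 2117 with both, -0.19 for the 1941 with an AG-only region only, and -0.12 for the 4425 with neither. The first lies 0.06 above the last, while the quartiles of the first are -0.43 and 0.33. With 1 library left out it was 0.04 to 0.07, and with lists cut to their higher-scoring 50% it was 0.02, and no test of it was made.

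**Figure D4:**
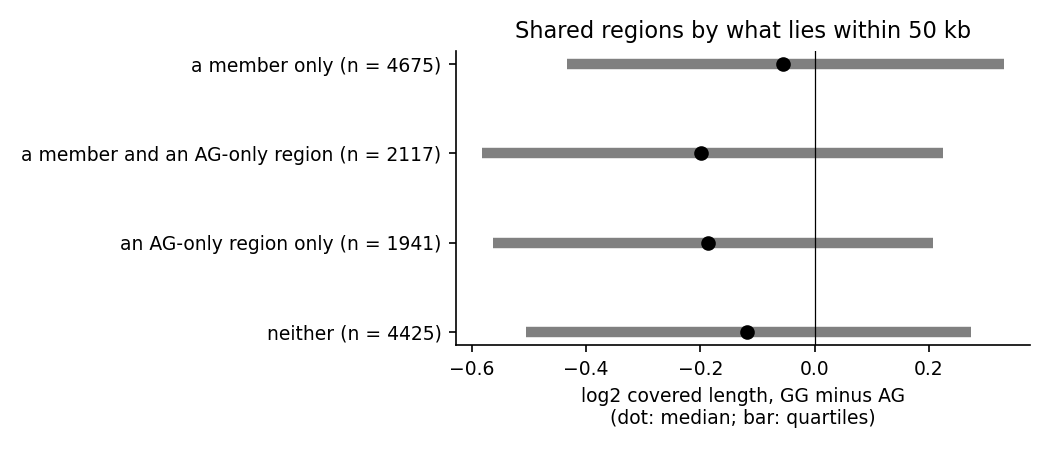
Log2 difference in called length (GG minus AG, horizontal) of regions called in all 4 libraries, grouped by whether a GG-only or an AG-only region lies within 50 kb. Dots are medians and bars run from the lower to the upper quartile. The 4675 shared regions with a GG-only region only have a median of -0.06, the highest of the 4 groups, and the bars of all groups overlap over most of their length.

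The shared regions with the smallest limma p among those beside a GG-only region are given as examples, none with an adjusted p under 0.229. The shared region chr1:34294913-34301058 was called over 5626 and 3927 bp in the GG and 457 and 301 bp in the AG libraries (log2 2.99, SE 0.37), with 2 GG-only regions within 50 kb. The next, chr14:108425010-108439937, is 14928 bp wide and was called over 12846 and 13845 bp in GG and 1670 and 970 bp in AG (log2 2.93, SE 0.38). These regions count as open in all 4 libraries, yet AG hotspots cover only a small part of them. The further ones longer in GG were chr20:70381347-70390810 (log2 2.50), chr17:4850194-4853978 (log2 2.59) and chr2:69889834-69895490 (log2 2.50).

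In the opposite direction, chr8:40410742-40417041 was called over 275 and 703 bp in the GG and 5365 and 5142 bp in the AG libraries (log2 -3.64, SE 0.46), with 1 GG-only and 1 AG-only region within 50 kb. A shared region called over less in GG can thus lie beside a GG-only region. The others longer in AG were chr11:52929565-52934105 (log2 -2.41), chr4:35537316-35542582 (log2 -2.61), chr3:125776984-125783460 (log2 -2.84) and chr19:44874505-44878324 (log2 -2.39). In these 10 shared regions, chosen by p, the groups do not overlap in called length.

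GG-only regions near shared chromatin were found on all 20 autosomes, from 596 on chromosome 1 to 91 on chromosome 18. They numbered 43.2 per 100 shared regions overall. This figure was highest on chromosomes 8 (52.6), 17 (51.2), 13 (50.5) and 5 (50.5) and lowest on chromosomes 19 (26.0), 20 (35.5) and 10 (36.0). AG-only regions near shared chromatin ran the other way. Per 100 shared regions there were 15.9, 14.3, 17.9 and 14.8 of them on chromosomes 8, 17, 13 and 5, and 26.9, 27.5 and 22.8 on chromosomes 19, 20 and 10.

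The ratio of GG-only to AG-only regions near shared chromatin was uneven over chromosomes. It was 3.57 on chromosome 17 (132 against 37), 3.41 on chromosome 5 (256 against 75) and 0.967 on chromosome 19 (261 against 270), the 1 autosome with fewer GG-only than AG-only regions when all hotspots were used. Across the 20 autosomes, the ratio fell as shared regions per Mb rose (Spearman rho = -0.729, a description, since chromosomes of the same libraries are not independent). With lists shortened to equal covered length, an alternative chosen for chromosomes after the data were seen, the ratio was 1.28 on chromosome 17, 1.37 on chromosome 5 and 0.466 on chromosome 19. It was then above 1 on 12 of the 20 autosomes and highest on chromosome 8 (1.59), and at equal number of hotspots it was above 1 on 18 and highest on chromosome 5 (2.49). Chromosome 19 had the lowest ratio of the 20 autosomes with all hotspots, with the higher-scoring 50% of each list and with lists of equal number or equal length.

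The share of GG-only regions that lay near shared chromatin ran with the density of shared regions over the 20 autosomes (Spearman rho = 0.956, a description). It was 86.1% on chromosome 19, which had 18.7 shared regions per Mb, 65.9% on chromosome 16 with 10.2 per Mb, and 32.2% on chromosome 5 with 2.66 per Mb. Regions called in GG replicate 1 only were near shared chromatin in 81.6%, 62.1% and 22.4% of cases on the same chromosomes, and those of GG replicate 2 in 84.9%, 65.1% and 25.6%. The same order thus held for regions of 1 library.

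**Figure D5:**
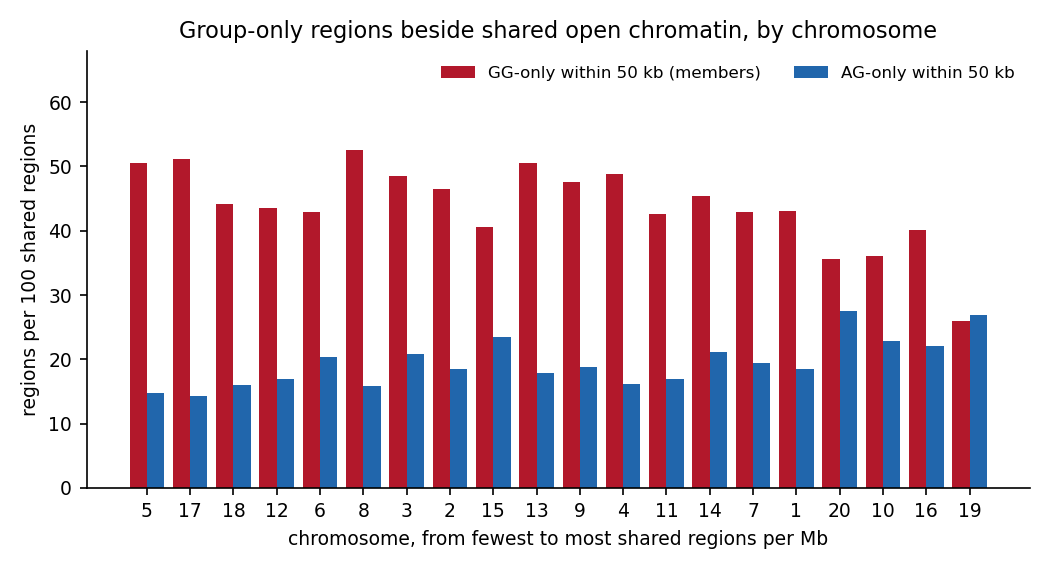
Group-only regions within 50 kb of shared chromatin per 100 shared regions (vertical), for each autosome, ordered from fewest to most shared regions per Mb (horizontal). Red bars are GG-only and blue bars AG-only regions. GG-only bars are higher on every autosome other than chromosome 19, where they stand at 26.0 and 26.9.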

How the data were processed

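DNase-seq of 2 GG and 2 AG morula libraries was analysed from the authors' deposited hotspot lists, 1 per library and not pooled, named for a false discovery rate of 0.01. Each hotspot has a chromosome, start, end and score. The submitters' processing notes name rheMac8 as build and, without order or role, deepTools 3.3.1, SAMtools, Bowtie2 and Trim Galore. The sources used here give neither the hotspot caller nor the scale of the deposited score. Scores were therefore used only to rank and filter within a list, and raw scores of named regions are given as deposited. The lists hold no read counts.

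Intervals that overlap or touch were merged, and a library called a region when any of its hotspots was part of it. Covered length of shared regions was tested with limma (lmFit and eBayes, 2 GG against 2 AG) with Benjamini-Hochberg adjustment. Shares of regions called in 1 library only that lay near shared chromatin were compared with an exact permutation test. A second such test, on the surroundings of the group-only sets, is left out because the choice of those sets bears on it. Merging and the limma test were tested on simulated data. How many simulated differences limma recovered is not given here, so the size of difference it could have missed is not stated. Shares have Wilson intervals. The regions and tests were chosen with earlier results of these data known. The rule for named regions took the 10 highest lower score percentiles, 5 widest, 5 smallest gaps, 3 on each side of the limit, 5 shared regions with most GG-only regions (ties by order in the list) and 5 smallest limma p per direction. Alternatives were shortened lists, other overlaps, merges, limits, offsets, centring, a variance trend, a replicate block and leaving out each library. Sequence content was left out for want of a rheMac8 genome. Tests were run in limma 3.58.1 (R 4.3.3) and scipy 1.17.1, and tables and plots made in matplotlib 3.10.9, pandas 2.3.3 and numpy 2.4.6 (Python 3.11.15).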

Additional observations from a re-analysis of the deposited data

How the results depend on the processing

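The number of GG-only regions near shared chromatin was 2758 in the higher-scoring 50% of each list, 2577 at equal covered length, 1806 when 50% of a region had to be covered, 2393 within 10 kb, and 9563 to 25294 with 1 library left out. The number per AG-only region near shared chromatin was 1.53 at equal number of hotspots, 0.958 at equal covered length, 2.02 with 50% covered and 2.32 within 10 kb. It was 0.396 to 6.48 with 1 library left out, with 0.396 and 0.526 without AG replicates 1 and 2, because a region of the shortened group then needs a call in 1 library only. The share of GG-only regions near shared chromatin was 39.9% in the higher-scoring 50%, 44.6% and 44.1% at equal number and length, 20.1% with 50% covered, 19.6%, 33.0% and 62.1% within 10, 25 and 100 kb, and 41.0 to 59.4% with 1 library left out. That of AG-only regions was 49.6% in the higher-scoring 50%, 53.0% at equal length, 27.5% with 50% covered, 21.8%, 38.5% and 71.7% within 10, 25 and 100 kb, and 44.4 to 61.0% with 1 library left out. With all libraries it was above that of GG-only regions, but without AG replicate 1 GG-only regions had 58.0% against 44.4% for AG-only regions, and without AG replicate 2 59.4% against 51.9%. The cause was not tested. With 1 library left out, a shared region needed calls in the remaining libraries only. With 50% covered, each library had to cover 50% of a shared region too. In both cases the shared regions that distances were measured to changed as well. A shared region with a GG-only region nearby had an unadjusted limma p under 0.05 in 359 cases in the higher-scoring 50%, where fewer were tested, and in 551 to 871 with 1 library left out, which assumes that the lone library varies like the others. No alternative gave a call at an adjusted p of 0.05. Replicate numbers did not pair the libraries (r = -0.0164 between same-numbered deviations), and the replicate block gave 788 such shared regions against 825, again with 0 calls. The direction of the 10 named shared regions was fixed by their choice, since their groups do not overlap, so alternatives do not test it. With 2 libraries per group and lists without depth, absence from a list cannot be told apart from too few reads.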

Other observations

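Chromosome X lies outside the autosomes used above. It held 16 regions called in both GG and neither AG library and 8 regions called in all 4 libraries, and 0 of the 16 lay within 50 kb of one of the 8. Almost all hotspots lay on chromosomes 1 to 20, 93089 of 93171 and 84748 of 84865 in the GG lists. In the AG lists it was 64712 of 64730 and 85269 of 85318. With so few hotspots on chromosome X, these counts say little about it. Among GG-only regions of the autosomes, 8 near shared chromatin and 5 farther away were in the top 1% of both GG lists, and 7 of the AG-only regions in each position were in the top 1% of both AG lists.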
